A study of Mus musculus with 6 samples.

Results

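Transcripts of 10 genes that drive and police chromosome segregation were followed in cells sorted from the bone marrow of irradiated mice. They were Aurka and Plk1, kinases of mitotic entry and spindle building, Aurkb and Birc5 of the chromosomal passenger complex, Ttk, Bub1, Bub1b and Mad2l1 of the spindle checkpoint, and Cdc20 and Ube2c, which work with the anaphase-promoting complex. The genes were chosen by symbol. Each symbol stood in 1 row of the deposited table of 53465 genes, and all 10 passed the filter on low counts, which left 15533 genes.

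The cells came from wild-type mice that were all exposed to 5.0 Gy of total body irradiation. Afterwards they received either saline (3 libraries) or carnosine, the histidine-containing dipeptide of muscle (3 libraries). The gate was that of long-term haematopoietic stem cells (LT-HSCs), positive for Sca-1 and c-Kit and negative for lineage markers, Flk2 and CD34. No library of an unirradiated mouse was analysed here, and the dose of carnosine, the time of sorting and the age of the mice were not stated in the labels. Nor do the labels tie each library to its own mouse, and the spread behind the p-values may therefore be technical.

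Before anaphase, every chromosome must be attached to both spindle poles. Aurora A and polo-like kinase 1 mature the centrosomes and build the spindle, and Aurora B, held at the centromere by survivin (Birc5) and its partners, releases faulty attachments. At unattached kinetochores the kinase Mps1 (Ttk) recruits Bub1, BubR1 (Bub1b) and Mad2 (Mad2l1), which hold back Cdc20. Once the last chromosome is attached, Cdc20 activates the anaphase-promoting complex, a ubiquitin ligase that is charged by the enzyme UbcH10 (Ube2c) and marks securin and cyclin B for destruction. Most of these genes are transcribed late in the cell cycle, through CCAAT boxes and a nearby element, the cell cycle genes homology region (CHR). Quiescent stem cells are known for low levels of such transcripts.

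Promoter windows from RefSeq (GRCm38.p6), from 250 bases before to 50 bases after the start of transcription, were found for 9 of the 10 genes, all but Aurkb. They are described because they differ in the letters of these elements. Whether these letters bear on the changes below was not tested. The windows printed were picked with those changes known, and those of Bub1, Bub1b and Mad2l1, which also rose, are not printed. The CCAAT box was found on either strand in 7 of the 9 windows (37.4% of all 32851 windows). The CHR, searched as TTTGAA on either strand, was found in 6 windows (17.9% of all windows). A CHR variant, searched as TTTAAA, which reads the same on both strands, was found in 3 windows (13.2% of all windows). A CCAAT box together with the CHR or its variant was found in 6 windows, those of Aurka, Plk1, Ttk, Bub1b, Cdc20 and Ube2c (10.7% of all windows). Motifs that overlapped were each counted. The windows are printed 5′ to 3′ along the gene, with these motifs of either strand in capitals. On the opposite strand the CCAAT box reads ATTGG, and the CHR of that strand reads TTCAAA. Near the upstream end of the Ube2c window a pair of CCAAT boxes on opposite strands overlaps. The windows are those of Aurka (chr2:172370521-172370820, minus strand), Plk1 (chr7:122159185-122159484, plus strand), Ttk (chr9:83834439-83834738, plus strand), Cdc20 (chr4:118437294-118437593, minus strand) and Ube2c (chr2:164769679-164769978, plus strand) and, for the gene that did not pass the test, of Birc5 (chr11:117848987-117849286, plus strand).
Aurka: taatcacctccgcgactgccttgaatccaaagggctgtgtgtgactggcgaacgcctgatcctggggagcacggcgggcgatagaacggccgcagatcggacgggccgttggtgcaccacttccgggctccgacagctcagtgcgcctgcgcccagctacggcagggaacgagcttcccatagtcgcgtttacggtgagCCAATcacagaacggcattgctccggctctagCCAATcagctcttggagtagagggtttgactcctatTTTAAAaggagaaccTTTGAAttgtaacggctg
Plk1: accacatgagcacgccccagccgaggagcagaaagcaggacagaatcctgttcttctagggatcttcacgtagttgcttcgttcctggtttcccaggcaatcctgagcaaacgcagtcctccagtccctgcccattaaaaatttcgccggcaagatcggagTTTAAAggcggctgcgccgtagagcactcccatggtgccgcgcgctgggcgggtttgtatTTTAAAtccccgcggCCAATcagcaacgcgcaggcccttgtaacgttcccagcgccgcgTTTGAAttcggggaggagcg
Ttk: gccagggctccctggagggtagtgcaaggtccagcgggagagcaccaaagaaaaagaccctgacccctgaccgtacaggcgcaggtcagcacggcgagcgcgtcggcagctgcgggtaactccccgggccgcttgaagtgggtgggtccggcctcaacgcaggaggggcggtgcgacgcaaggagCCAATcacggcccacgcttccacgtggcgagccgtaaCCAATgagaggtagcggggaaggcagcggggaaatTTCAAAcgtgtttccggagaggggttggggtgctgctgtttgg
Cdc20: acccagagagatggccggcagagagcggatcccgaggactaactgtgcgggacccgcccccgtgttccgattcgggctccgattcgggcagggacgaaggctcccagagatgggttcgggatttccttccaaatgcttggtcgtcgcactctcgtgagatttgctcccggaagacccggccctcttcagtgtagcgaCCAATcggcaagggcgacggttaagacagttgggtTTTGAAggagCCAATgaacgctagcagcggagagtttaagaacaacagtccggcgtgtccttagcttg
Ube2c: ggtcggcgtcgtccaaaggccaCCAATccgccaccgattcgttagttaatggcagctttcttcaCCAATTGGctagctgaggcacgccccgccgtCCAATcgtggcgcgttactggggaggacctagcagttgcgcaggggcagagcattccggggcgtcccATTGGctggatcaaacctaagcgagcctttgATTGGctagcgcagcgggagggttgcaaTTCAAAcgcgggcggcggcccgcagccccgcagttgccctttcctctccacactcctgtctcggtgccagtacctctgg
Birc5: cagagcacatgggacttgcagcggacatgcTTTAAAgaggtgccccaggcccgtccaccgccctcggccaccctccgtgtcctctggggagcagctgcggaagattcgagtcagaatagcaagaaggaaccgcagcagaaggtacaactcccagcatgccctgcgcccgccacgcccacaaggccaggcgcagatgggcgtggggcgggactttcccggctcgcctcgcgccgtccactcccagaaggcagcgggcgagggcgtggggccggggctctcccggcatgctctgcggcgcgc

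In the Cdc20 window the CHR began 18 bases before the start of transcription, between CCAAT boxes 53 and 8 bases before it. The CHR of Ube2c lay on the opposite strand, 29 bases before the start, and the window held 6 CCAAT boxes. In Aurka, Plk1 and Ttk the CHR began 32, 30 and 7 bases after the start, in Ttk on the opposite strand. The Birc5 window held neither a CCAAT box nor the CHR, and its CHR variant began 220 bases before the start. Bub1 had 2 CCAAT boxes and neither form of the CHR, and Mad2l1 had none of the 3 motifs. A match of letters is a description and not a bound site.

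Carnosine libraries held more of 9 of the 10 mitotic transcripts. Plk1, Aurka and Ttk were 1.63, 1.59 and 1.56 times as abundant as with saline, Aurkb, Ube2c and Cdc20 1.45, 1.43 and 1.42 times, and Bub1b, Bub1 and Mad2l1 1.32, 1.26 and 1.23 times. Only Birc5, at 1.07 times, did not pass the test, and none of the 10 fell. The test was edgeR's quasi-likelihood test over all genes with a Benjamini-Hochberg adjusted p under 0.05. It called 19.6% of the 15533 tested genes higher and 19.8% lower with carnosine, 39.4% in all. At an unadjusted p under 0.05 the counts among the 10 genes were the same, 9 higher and 0 lower, and DESeq2 likewise called 9 higher and 0 lower. The median log2 fold change was 0.51 over the 10 genes and -5.0e-05 over all genes tested. The groups did not overlap, with every carnosine library above every saline library, for 9 of the 10 genes and for 26.2% of all genes tested, and in the opposite order for 0 of the 10 and for 26.1% of all. In bulk RNA, more cells in mitosis and more transcript per cell cannot be told apart.

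**Figure D1:**
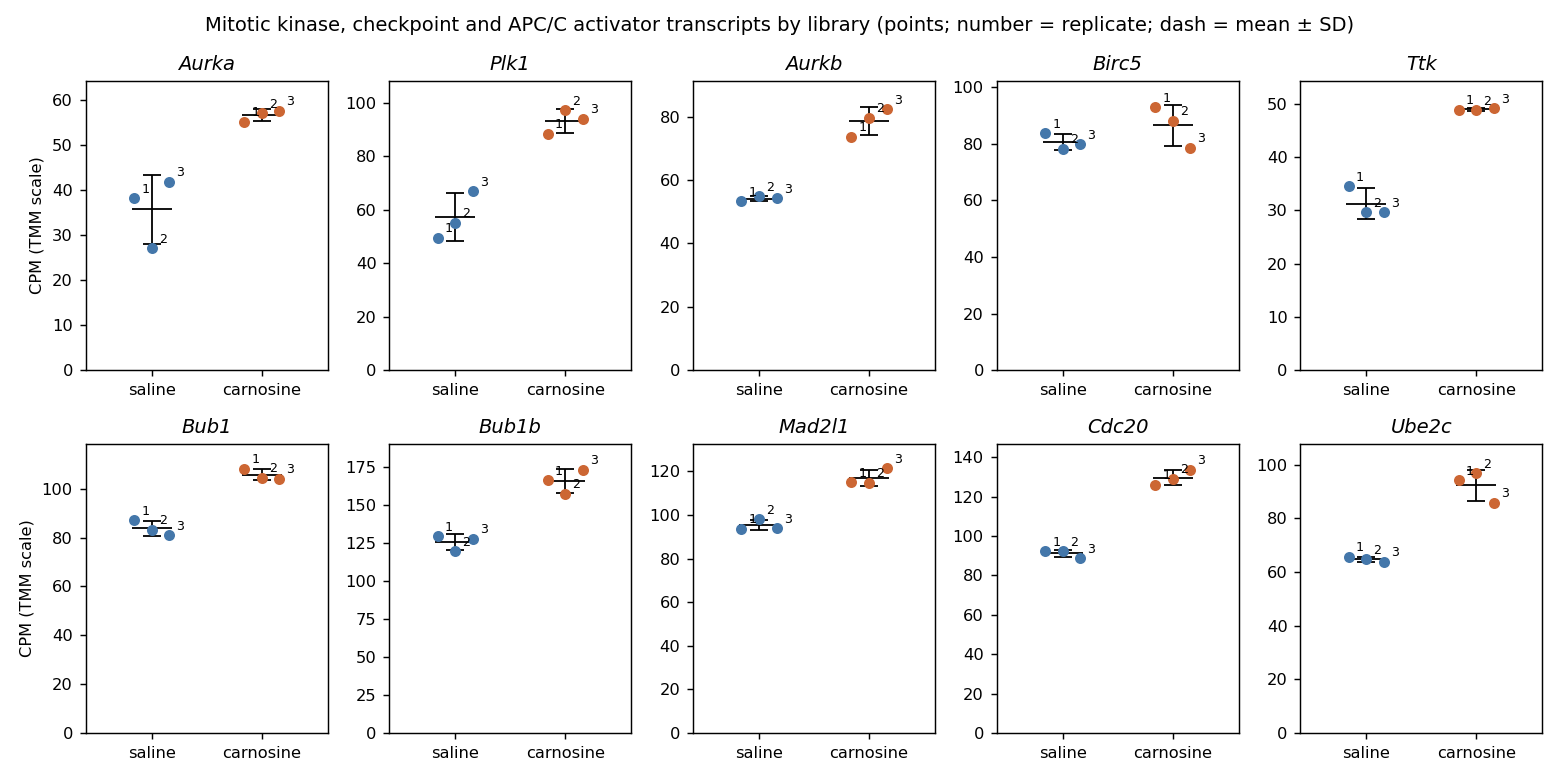
Each panel gives the level of 1 gene in CPM (counts scaled to library size, axis from 0) in the 3 saline and 3 carnosine libraries, with points numbered by replicate and a dash with bars for mean ± SD. The carnosine points lie above all saline points except for Birc5, whose carnosine replicate 3 (78.5 CPM) lies below 2 of the saline points.

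Library totals were 12602067 to 16866534 counts with saline and 12730837 to 13651553 with carnosine. The 10 genes had 365 to 2316 counts per library, for which counting error alone is 5.23% to 2.08%. The stem cell gate was checked against 10 marker genes. Kit was abundant (329.6 and 378.1 CPM with saline and carnosine), whereas Procr (5.66 and 4.97 CPM), Fgd5 (3.29 and 1.76 CPM) and Hoxb5 (0.871 and 0.538 CPM) were low in both groups, so LT-HSC names the gate and not a checked identity. The marker calls that follow stand beside 19.6% of all tested genes called higher and 19.8% called lower. Of the 9 stem cell markers tested 5 fell and 1 (Kit) rose. The summed level of all 10 was 509.9 to 521.6 CPM with saline and 481 to 494.9 CPM with carnosine. All 8 granulocyte progenitor markers rose, with sums of 3744 to 3779 CPM against 7809 to 8053 CPM. Of 8 erythroid markers 5 rose and 2 fell (774 to 782 CPM against 964 to 981 CPM), and all 7 megakaryocyte markers tested fell (427 to 449 CPM against 176 to 183 CPM). Of 8 B and plasma cell markers 1 rose and 1 fell (360 to 373 CPM against 329 to 629 CPM), near the shares of all genes. Jchain alone, at 321.7 ± 6.97 and 480.4 ± 172.4 CPM (mean ± SD of 3 libraries), made up most of that sum. In the T and NK list 3 of 4 tested markers rose and 1 fell (86.5 to 88.1 CPM against 121 to 129.8 CPM). Nkg7 alone, with means of 81.5 and 113.7 CPM, made up most of that sum. Cd3d, Cd3e and Cd3g had group means of 0.155 to 1.22 CPM. In the macrophage list 2 of 4 rose and 1 fell (178 to 204 CPM against 193 to 246 CPM). No marker was at 0 counts in all 6 libraries. These shifts move with the rise of the mitotic genes, and their part in it was not tested.

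Plk1 (ENSMUSG00000030867, chromosome 7, 122159439 to 122169873, plus strand, GRCm38), the kinase that triggers mitotic entry and centrosome maturation, had the largest change of the 10. It was at 49.5, 55 and 66.9 CPM in the saline libraries and at 88.3, 97.1 and 93.9 CPM in the carnosine libraries. The groups did not overlap, although saline replicate 3 was above its group's other libraries. The means were 57.2 ± 8.9 and 93.1 ± 4.46 CPM (SD, n = 3 each), and the log2 fold change was 0.71 ± 0.105 (SE; adjusted p = 0.0018, edgeR). A larger log2 fold change was found for 6.14% of all tested genes.

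Aurka (ENSMUSG00000027496, chromosome 2, 172356190 to 172370535, minus strand), which encodes the centrosomal and spindle kinase Aurora A, was at 38.2, 27.1 and 41.9 CPM with saline and 55.2, 57.1 and 57.7 CPM with carnosine. Saline replicate 2 was far below the other 2 saline libraries, while the carnosine libraries lay close together. The log2 fold change was 0.67 ± 0.145 (SE; adjusted p = 0.0097, edgeR), the widest error of the 10. Without saline replicate 2 it was 0.50 (adjusted p = 0.0022, edgeR), and adjusted p-values ran from 6.4e-05 to 0.031 over the 14 alternatives.

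Aurkb (ENSMUSG00000020897, chromosome 11, 69045647 to 69051664, plus strand) encodes Aurora B, the catalytic subunit of the passenger complex. Its 3 saline libraries were nearly level at 53.2, 54.8 and 54.2 CPM, and the carnosine libraries stood at 73.6, 79.6 and 82.3 CPM. All carnosine libraries were above all saline libraries (log2 fold change 0.54 ± 0.0525, SE; adjusted p = 0.00024, edgeR). Birc5 (ENSMUSG00000017716, chromosome 11, 117849251 to 117855743, plus strand), whose product survivin docks Aurora B at the centromere, was the exception among the 10. It was at 83.6, 78.2 and 79.8 CPM with saline and 92.8, 88.1 and 78.5 CPM with carnosine, so the groups overlapped. Its log2 fold change of 0.10 ± 0.0655 (SE) did not pass the test (adjusted p = 0.26, edgeR; 0.045 to 0.61 over its alternatives). It passed only without carnosine replicate 3, with a log2 fold change of 0.17 (adjusted p = 0.045, edgeR). Without carnosine replicate 1 the log2 fold change was 0.049, and with a correction for GC content and transcript length it was likewise 0.049.

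**Figure D2:**
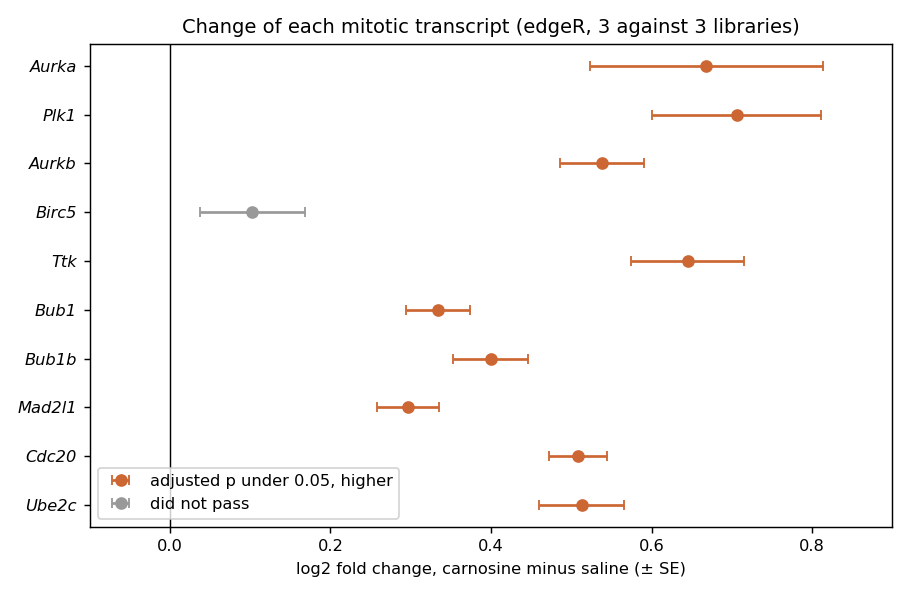
Log2 fold change of carnosine against saline for each gene (horizontal axis; bars are ± SE, 3 against 3 libraries), with orange points for adjusted p under 0.05. The 9 orange points lie between 0.30 (Mad2l1) and 0.71 (Plk1), and the grey point of Birc5 lies at 0.10.

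Among the checkpoint genes, the upstream kinase Ttk changed most. Ttk (ENSMUSG00000038379, chromosome 9, 83834689 to 83872389, plus strand) was at 34.5, 29.6 and 29.6 CPM with saline and at 48.9, 48.7 and 49.2 CPM with carnosine. The carnosine libraries were nearly identical (SD 0.237 CPM), and all lay above the saline libraries. The log2 fold change was 0.64 ± 0.0709 (SE; adjusted p = 0.00043, edgeR). Bub1 (ENSMUSG00000027379, chromosome 2, 127801122 to 127831865, minus strand), the kinase that marks centromeric chromatin and scaffolds the checkpoint, was at 87.1, 83.3 and 81.1 CPM with saline and 108, 104.6 and 104 CPM with carnosine. Its log2 fold change was 0.33 ± 0.0401 (SE; adjusted p = 0.00065, edgeR).

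Bub1b (ENSMUSG00000040084, chromosome 2, 118598211 to 118641591, plus strand) encodes BubR1, the part of the mitotic checkpoint complex that occupies Cdc20 together with Mad2. It had the highest CPM of the 10 genes, 129.5, 119.7 and 127.9 CPM with saline and 166.5, 157.7 and 173.4 CPM with carnosine. The groups did not overlap, and the log2 fold change was 0.40 ± 0.0467 (SE; adjusted p = 0.00057, edgeR). Mad2l1 (ENSMUSG00000029910, chromosome 6, 66535390 to 66547220, plus strand) encodes Mad2, which changes shape when it seizes Cdc20. It was at 93.8, 98 and 94 CPM with saline and 115, 114.7 and 121.4 CPM with carnosine. This was the smallest change that passed (log2 fold change 0.30 ± 0.0384, SE; adjusted p = 0.00091, edgeR), again with no overlap between the groups.

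Cdc20 and Ube2c, which promote the exit from mitosis, changed by nearly the same factor. Cdc20 (ENSMUSG00000006398, chromosome 4, 118432901 to 118437352, minus strand), the activator that the checkpoint restrains, was at 92.2, 92.3 and 88.8 CPM with saline and 126, 129 and 134 CPM with carnosine. It had the smallest p-value of the 10 (log2 fold change 0.51 ± 0.0363, SE; adjusted p = 5.4e-05, edgeR). Ube2c (ENSMUSG00000001403, chromosome 2, 164769898 to 164778822, plus strand), the enzyme that places the first ubiquitin on the complex's targets, was at 65.6, 64.7 and 63.8 CPM with saline and 94.3, 96.8 and 85.8 CPM with carnosine. Carnosine replicate 3 was the lowest of its group but still above every saline library (log2 fold change 0.51 ± 0.0528, SE; adjusted p = 0.00032, edgeR). On the opposite strand the exons of Cdc20 share 53 bases with Elovl1, those of Ube2c 592 bases with Tnnc2 and those of Plk1 156 bases with Gm44985. Whether counting used the strand is not stated in the labels. Elovl1 had 5550 counts over the 6 libraries, Gm44985 58 and Tnnc2 3.

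Per length of transcript, Cdc20 was the most abundant of the 10 and Ttk the least in both groups. On the deposited FPKM scale (fragments scaled to gene length and library size) the saline means ran in the order Cdc20 (38.8 ± 0.911, SD, n = 3), Bub1b (25.5 ± 1.03), Ube2c (22.8 ± 0.347), Birc5 (18.9 ± 0.641), Plk1 (17.3 ± 2.67), Bub1 (15.8 ± 0.58), Aurkb (9.11 ± 0.144), Aurka (9.01 ± 1.93), Mad2l1 (8.95 ± 0.241) and Ttk (5.25 ± 0.476). Birc5 and Plk1, Plk1 and Bub1, Aurkb and Aurka, and Aurka and Mad2l1 overlapped in their saline libraries and could not be ranked. With carnosine Plk1 (29.3 ± 1.39 FPKM) stood above Birc5 (21.1 ± 1.79 FPKM) with no overlap, while Bub1b and Ube2c, and Birc5 and Bub1, overlapped. The length implied by the deposited FPKM was longer than the joined exons of GENCODE M21, by amounts that differed between genes (5810 against 2946 bases for Aurkb, 2299 against 1868 for Cdc20). On CPM per exon kilobase Plk1 moved to rank 3 with saline and rank 2 with carnosine, Cdc20 stayed at rank 1 and Ttk at rank 10.

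**Figure D3:**
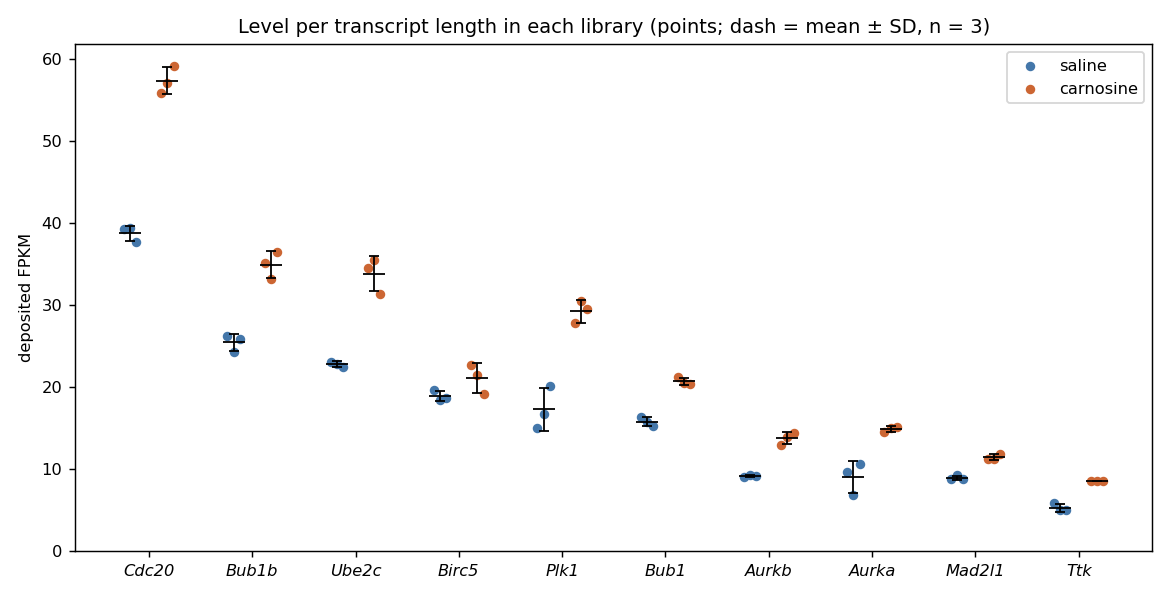
Deposited FPKM (vertical axis from 0) of each gene in every library, ordered by the saline mean, with dashes and bars for mean ± SD. Cdc20 stands highest in both groups (38.8 and 57.4 FPKM) and Ttk lowest (5.25 and 8.55 FPKM).

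Ratios of partner transcripts within a library do not depend on how libraries are scaled, and 5 were compared. With 3 against 3 libraries the exact two-sided permutation test cannot go below 0.10, so none could pass. Cdc20 counts relative to those of its inhibitor Mad2l1 were 0.983, 0.942 and 0.945 in the saline libraries and 1.1, 1.13 and 1.1 in the carnosine libraries. The ratio was higher in every carnosine library, by 0.21 on the log2 scale (exact permutation p = 0.10, adjusted over the 5 ratios 0.25). Counts of Birc5 relative to its partner Aurkb were 1.57, 1.43 and 1.47 with saline and 1.26, 1.11 and 0.954 with carnosine. This ratio was lower in every carnosine library, with a log2 difference of -0.44 (exact permutation p = 0.10, adjusted 0.25).

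The other 3 ratios overlapped between the groups. The log2 difference was -0.065 for Bub1 to Bub1b (exact permutation p = 0.40, adjusted 0.67), 0.0023 for Ube2c to Cdc20 (exact permutation p = 1) and 0.15 for Aurka to Aurkb (exact permutation p = 0.90). The last turned to -0.044 without saline replicate 2, the library with little Aurka, where the Aurka to Aurkb ratio was 0.494 against 0.701 to 0.774 in the other 5 libraries. The sign for Ube2c to Cdc20 turned without saline replicate 2 or carnosine replicate 1 or 2 (-0.0077, -0.033 and -0.036).

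**Figure D4:**
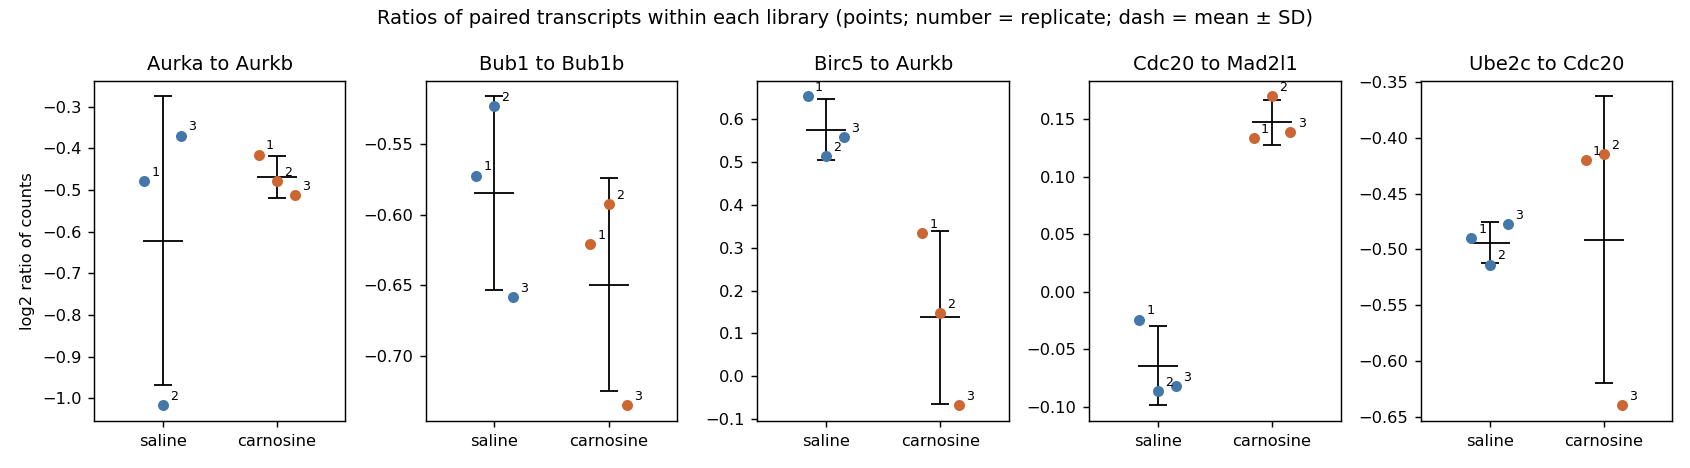
Log2 ratio of the counts of 2 genes within each library (vertical axes differ between panels and do not start at 0), with points numbered by replicate and mean ± SD. The groups are apart for Birc5 to Aurkb and Cdc20 to Mad2l1 and overlap in the other 3 panels.

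Partners of the Aurora kinases and protectors of the centromere rose with them. Of 11 tested genes 10 rose and 0 fell, beside 19.6% and 19.8% of all tested genes. The number that fell was 0 also at an unadjusted p under 0.05 and by DESeq2. The median log2 fold change was 0.33. Sgo2a, which shields centromeric cohesin, went from 21.6 ± 1.77 to 41.2 ± 1.71 CPM (mean ± SD of 3 libraries) and so rose by 0.93 on the log2 scale. Haspin, the histone kinase that places the passenger complex on the centromere, rose by 0.78 on the log2 scale, and Tpx2, the activator of Aurora A, by 0.47. Incenp, the scaffold of the passenger complex, rose from 198 ± 2.34 to 249.2 ± 1.53 CPM. The remaining list member, the meiotic kinase Aurkc, had 0 counts in all 6 libraries, which allows up to 0.0679 CPM over the saline and 0.0737 CPM over the carnosine group by counting error.

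Checkpoint and kinetochore partners rose in 8 of 12 cases and fell in 1, beside 19.6% and 19.8% of all tested genes. Their median log2 fold change was 0.25. Mis12, a base of the kinetochore, rose by 0.63 on the log2 scale, Spdl1, which brings dynein to kinetochores, by 0.62, Zwilch of the Rod-Zwilch-ZW10 complex by 0.43 and the kinetochore motor Cenpe by 0.27. The gene that fell, Mad2l1bp, encodes p31comet, which takes Mad2 out of the checkpoint complex. It was at 11 ± 0.465 and 9.12 ± 0.618 CPM (log2 fold change -0.27, adjusted p = 0.044, edgeR). That call was lost in 9 of 14 alternatives, among them each library left out except carnosine replicate 2. The scaffold Knl1, on which Bub1 and BubR1 assemble, rose by 0.89, while Bub3 and Mad1l1, direct partners of BubR1 and Mad2, did not pass (log2 fold changes -0.11 and 0.041, adjusted p = 0.45 and 0.74, edgeR). These 3 genes were picked after their values were seen.

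Of 18 subunits and regulators of the anaphase-promoting complex 8 rose and 3 fell, beside 19.6% and 19.8% of all tested genes. The median log2 fold change was 0.075, with a range of -0.27 to 0.36. Cdc23, Anapc4 and Cdc16, subunits of the complex, rose by 0.36, 0.28 and 0.23 on the log2 scale, and Fzr1, the activator that takes over from Cdc20 after anaphase, by 0.23. The subunits Anapc5 and Anapc16 and the deubiquitinase Usp37 fell by 0.087, 0.24 and 0.23. The number that fell was near the 19.8% of all tested genes. The calls of Anapc5 and Anapc16 were each lost in 9 of 14 alternatives. The number that rose dropped to 5 without carnosine replicate 1 or 3 and to 4 without saline replicate 3, and the number that fell to 1 without carnosine replicate 2 or 3 or saline replicate 1 or 2.

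Substrates of the complex, listed with the cohesin protease separase (Espl1), rose in 7 of 10 cases and fell in 0 (edgeR). Of all tested genes 19.6% rose and 19.8% fell. The number of substrates that fell was 0 also at an unadjusted p under 0.05 and by DESeq2, and their median was 0.33. Cyclin B1 (Ccnb1) rose by 0.72 on the log2 scale, the ribonucleotide reductase subunit Rrm2 by 0.57, Espl1 by 0.48 and the spindle motor Kif11 by 0.37. Securin (Pttg1), cyclin B2 (Ccnb2) and Tk1 did not pass (log2 fold changes 0.11, 0.053 and 0.18, adjusted p = 0.28, 0.32 and 0.088, edgeR). With saline, Ccnb2 was at 107.1 CPM and Ccnb1 at 31.5 CPM. Of 17 further kinases, phosphatases and regulators of mitotic entry 9 rose and 4 fell (2 fell without saline replicate 1), beside 19.6% and 19.8% of all tested genes, and the median was 0.13. The number that fell was near that background. Cdk1, the master kinase of mitosis, rose from 63.3 ± 3.85 to 93 ± 3.92 CPM, and the phosphatase Cdc25c that switches it on rose by 0.57 on the log2 scale. Its relative Cdc25b fell by 0.22 (not called without carnosine replicate 3 or saline replicate 1, nor by DESeq2). Ensa, an inhibitor of the phosphatase PP2A, fell by 0.18 with an adjusted p of 0.049 (edgeR), a call lost in 10 of 14 alternatives.

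The polo-like kinases parted. Plk1 rose, as given above, and Plk4, which starts centriole duplication, rose by 0.55 on the log2 scale (chosen after its value was seen). Plk2 and Plk3, stress-responsive relatives, fell by 2.40 and 1.63. The saline libraries held 66.4 ± 1.47 CPM of Plk3, the carnosine libraries 21.4 ± 0.64 CPM (SD, n = 3 per group).

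Of 20 genes of S phase tested 2 rose and 9 fell, beside 19.6% and 19.8% of all tested genes, with a median log2 fold change of -0.075. The rises were the replication factors Cdc45 (0.29 on the log2 scale) and Cdc6 (0.19; not called without carnosine replicate 2 or saline replicate 1). The licensing factor Orc1 fell by 0.53, the polymerase subunit Pola1 by 0.14 and the helicase subunit Mcm3 by 0.13. Without carnosine replicate 2 the number that rose was 1, and without carnosine replicate 3 the number that fell was 5. On the deposited FPKM values, where the median of all genes was 0.051 on the log2 scale, 4 rose and 4 fell, and Mcm3 did not pass. The lists were compared by counts and medians only, and the difference between the mitotic and the S phase genes was not tested.

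**Figure D5:**
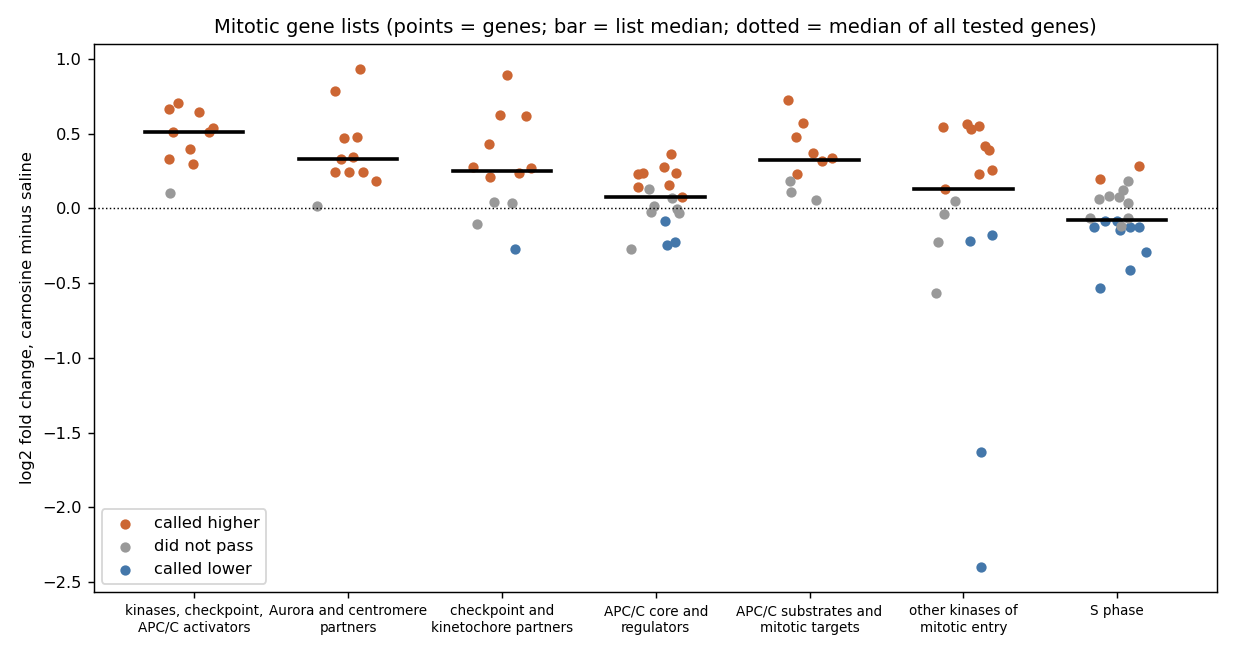
Log2 fold change (carnosine minus saline) of each tested gene by list, coloured by call, with a bar at the list median and a dotted line at the median of all tested genes. The bars run from 0.51 for the 10 mitotic genes to -0.075 for S phase, and the lowest blue points are Plk2 (-2.40) and Plk3 (-1.63).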

How the data were processed

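Per the labels' protocols, stranded paired-end libraries of poly-A RNA were read on a NovaSeq sequencer. CASAVA 1.8, HISAT2, StringTie, edgeR and GRCm38 are named in the submitters' processing notes without roles. The deposited table gives a raw count and an FPKM value per gene and library, per the file headers. FPKM scales with the count and the library total. Groups and replicate numbers came from the sample titles.

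Counts were tested with edgeR 4.0.16 (R 4.3.3; filterByExpr, TMM, quasi-likelihood F-test, no covariate), with Benjamini-Hochberg adjustment over 15533 genes. SEs were derived from the fold change and its F statistic. Levels are CPM on the TMM scale. Between libraries of a group the median squared difference was 1.81 to 2.13 times that of sampling noise, so none were copies of another's counts. Whether they were repeat preparations of the same sample cannot be told from this. Alternatives were DESeq2 1.42.0 (test and size factors), upper quartile scaling, no filter, limma 3.58.1 (voom, and trend on log2(FPKM + 1) where 3 libraries reached 1 FPKM), a replicate block, each library left out, and a GC and length correction (splines with 5 degrees of freedom) chosen after seeing the data. The edgeR procedure was tested on simulated counts. From each further list the 4 smallest p-values, calls against the list's majority and directions with 5 or fewer calls were named. Of the substrates, those that did not pass were also named. The 10 genes and the lists were chosen with earlier results of these data known.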

Additional observations from a re-analysis of the deposited data

How the results depend on the processing

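Of the 10 mitotic genes, 9 kept their call and direction under all 14 alternatives, and Birc5 passed under 1. The calls over all genes were 3038 higher and 3077 lower. On the deposited FPKM values 3387 were higher and 2156 lower of 13348, so that 61.1% of the calls were higher in place of 49.7%. The substrates that did not pass were left out of the next counts. For genes named from the other lists 444 of 490 values kept direction and call, 44 lost the call and 2 changed sign. These were Bub3 (0.00084 without carnosine replicate 1, -0.19 to 0.00084 with libraries left out) and Mad1l1 (-0.045 without saline replicate 3, -0.045 to 0.093), neither of which had passed.

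With the replicate number as a block, 2552 genes were higher and 2679 lower, and 9 of the 10 mitotic genes were higher. Same-numbered libraries shared almost no deviation from their group means (r from 0.0079 to 0.027 over all tested genes). Of the libraries, 6 of 6 correlated best with their own number. Deviations within a group sum to 0, so these matches were not independent. They come from the data and not the design, and a pairing of the libraries was not tested. The number of checkpoint partners that fell (1, Mad2l1bp) was 0 with the block, DESeq2, no filter and the GC and length correction, and 0 to 1 with libraries left out. For the subunits and regulators of the anaphase-promoting complex, DESeq2 gave 4 higher and 1 lower, no filter 5 and 1, and FPKM 0 lower, with 4 to 7 higher and 1 to 2 lower when libraries were left out. Of the 17 further kinases, phosphatases and regulators of mitotic entry, 2 fell with DESeq2 and 2 to 4 with libraries left out. Plk2 and Plk3 each lost their call in 0 of 14 alternatives. In S phase DESeq2 gave 5 lower and FPKM 4 higher and 4 lower, and libraries left out gave 1 to 3 higher and 5 to 7 lower. The causes were not tested. With libraries left out the log2 differences ran from -0.044 to 0.28 for Aurka to Aurkb and from -0.036 to 0.077 for Ube2c to Cdc20. The block's sign-flip test with 3 pairs cannot go below 0.25, and gave 0.25 for Cdc20 to Mad2l1 (0.21) and for Birc5 to Aurkb (-0.44). Counting error is larger for the low genes of the lists, such as Mad2l1bp, than for the 10 mitotic genes. Its part in the lost calls was not tested. Anapc5, at 294.9 and 277.7 CPM with saline and carnosine, lost its call in 9 of 14 alternatives. Haspin, at 12.3 and 21.2 CPM, lost it in 0.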
